A study of Mus musculus with 37 samples.

Results

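A set of 10 genes that Wnt/β-catenin signaling holds around the central vein of the liver lobule was followed in the livers of mice exposed to HFPO-DA, a short-chain PFAS compound. The genes were taken by symbol as all TempO-Seq probes of Glul, Axin2, Lgr5, Oat, Slc1a2, Rhbg, Tbx3, Znrf3, Rnf43 and Lect2, which makes 10 of 21450 gene symbols and 16 of 30146 probes. Slc1a2 had 4 probes, Glul, Lect2 and Axin2 had 2 each, and the other members had 1. A total of 15 of the 16 probes passed the filter on low counts, so that all 10 genes were tested.

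The mice were wild-type Crl:CD1(ICR) animals of the parental generation in a reproductive toxicity study, given HFPO-DA by oral gavage once daily at 0.1 mg/kg, 0.5 mg/kg or 5 mg/kg, or deionized water alone as the control. Males were about 6 weeks old at the start and received 84 to 85 doses, beginning 70 days before mating, while females were about 11 weeks old, began 14 days before mating and received 53 to 65 doses up to the end of lactation. Males numbered 5, 5, 5 and 4 and females 5, 5, 4 and 4 in order of dose. Single mice are referred to below by a number given here within each group, which is not a label of the study. Age, the number of doses and lactation cannot be told apart from sex in this design. Each sample was a scraped section of fixed liver holding all of its cell types, so fewer cells of a type and less RNA per cell cannot be told apart.

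Hepatocytes differ along the line from the portal tract to the central vein. Endothelial cells at the central vein release Wnt ligands and R-spondin, which stabilize β-catenin in the adjacent hepatocytes, and β-catenin then acts with TCF/LEF factors to switch on pericentral genes. These genes clear ammonia as glutamine, import glutamate and ammonium, and include feedback genes that dampen the same pathway. Periportal hepatocytes, by contrast, hold urea synthesis, gluconeogenesis and the breakdown of amino acids such as histidine.

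Promoter windows reaching from 250 bases before to 50 bases after the transcription start were read from RefSeq on GRCm38.p6. They matched 6 of the 10 genes with 7 windows (Axin2, Glul, Lect2, Oat, Slc1a2 and 2 of Rnf43). The TCF/LEF core CTTTG, followed by 2 bases that are each A or T, was searched on both strands. Windows of Lect2 and Slc1a2 held a match, the word ATCAAAG on the printed strand, with its first base 32 bases before the start in Lect2 and 207 bases before it in Slc1a2. Among all 32851 windows, 16.9% held at least 1 such match. Both matches are shown because Lect2 and Slc1a2 are the members that fell in both sexes, and Glul is shown as the best-known pericentral gene. A link between the word and the fall was not tested, and the windows of Axin2 and Oat, which also fell, held no match. Capitals mark the match, and the Glul window held none. The Lect2 window lies at chr13:56548489-56548788 on the minus strand, the Slc1a2 window at chr2:102706188-102706487 on the plus strand within the span of the gene, and the Glul window at chr1:153899679-153899978 on the plus strand.
Lect2: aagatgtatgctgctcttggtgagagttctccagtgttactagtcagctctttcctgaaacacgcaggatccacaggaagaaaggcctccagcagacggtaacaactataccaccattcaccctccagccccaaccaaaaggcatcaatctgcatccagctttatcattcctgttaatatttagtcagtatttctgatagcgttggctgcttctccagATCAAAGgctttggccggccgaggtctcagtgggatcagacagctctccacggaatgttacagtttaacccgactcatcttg
Slc1a2: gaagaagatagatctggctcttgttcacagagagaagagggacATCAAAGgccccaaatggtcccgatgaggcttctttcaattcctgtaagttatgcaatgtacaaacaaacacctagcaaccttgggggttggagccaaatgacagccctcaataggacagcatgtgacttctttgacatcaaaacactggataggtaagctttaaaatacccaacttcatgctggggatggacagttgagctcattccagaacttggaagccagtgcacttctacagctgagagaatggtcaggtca
Glul: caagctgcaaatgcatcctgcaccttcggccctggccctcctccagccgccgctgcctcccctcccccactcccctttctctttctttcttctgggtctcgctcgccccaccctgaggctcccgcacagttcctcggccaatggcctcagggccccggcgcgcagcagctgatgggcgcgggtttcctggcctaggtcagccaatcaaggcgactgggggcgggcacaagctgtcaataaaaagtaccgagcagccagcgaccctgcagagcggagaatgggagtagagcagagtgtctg

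Total counts ran from 2101495 to 10548222 in males and from 7952605 to 13878254 in females. Low depth was found in 4 males, with 2101495 to 4147445 counts, of which 2 were in the group at 5 mg/kg. At that dose, results without these 4 mice are given for Slc1a2, Oat, Glul and Hhip and for several counts of genes. The other results at that dose are given with these mice only. A probe with no count in a mouse could still have been present at up to 3 counts, which is 0.206 to 1.13 CPM depending on the total of the mouse, a limit of counting error only. The 9 hepatocyte markers examined summed to between 14950 and 33720 CPM over the control and 5 mg/kg mice, and none was at 0 throughout a group. Levels are given as CPM, counts relative to the total of the mouse on a per-million scale, adjusted by TMM factors. Probes capture their targets unequally, so levels were not compared between genes. Differences are log2 fold changes with their standard error (SE) and a Benjamini-Hochberg adjusted p over 18570 probes, and a probe was called at an adjusted p under 0.10. The p-values come from edgeR's quasi-likelihood test. It weighs a difference between group means against the spread between mice within groups, estimated over all 8 groups together. The 3 doses of a sex were compared with the same control mice, so their values are set side by side without a test of likeness.

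At 5 mg/kg, 4 of the 10 genes fell in males (Slc1a2, Oat, Lect2 and Glul) and 3 fell in females (Slc1a2, Lect2 and Axin2), and no member rose in either sex. A gene was counted where at least 1 of its probes was called. Glul was counted by 1 of its 2 probes, the less counted Glul_29159, whose call was lost under 11 of 19 alternatives. By probe, 8 of 15 were lowered in males, beside 8.49% of all tested probes lowered and 4.21% raised. In females it was 6 of 15 lowered, beside 2.26% of all probes lowered and 2.26% raised. At 0.5 mg/kg, 1 member probe fell in males, of Lect2, where 0.242% of all probes were lowered and 0.382% raised. No member was called at 0.5 mg/kg in females, where 0.00539% of all probes were lowered and 0.108% raised. There 2 of 15 member probes, of 2 genes, had an unadjusted p under 0.05, beside 4.33% of all probes. At 0.1 mg/kg the called share of all probes was 0% in both sexes. The only unadjusted p under 0.05 among the members was that of Axin2, 1 of 15 probes in each sex. Of all probes 7.14% in males and 2.38% in females had such a p. DESeq2 called no member at 0.1 mg/kg either. Over the most counted probe of each gene, log2 fold changes at 5 mg/kg had a median of −1.07 in males, taken over the 9 genes with counts in both groups, and −1.02 in females over 10 genes. The medians over all tested probes were −0.12 and −0.01.

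**Figure D1:**
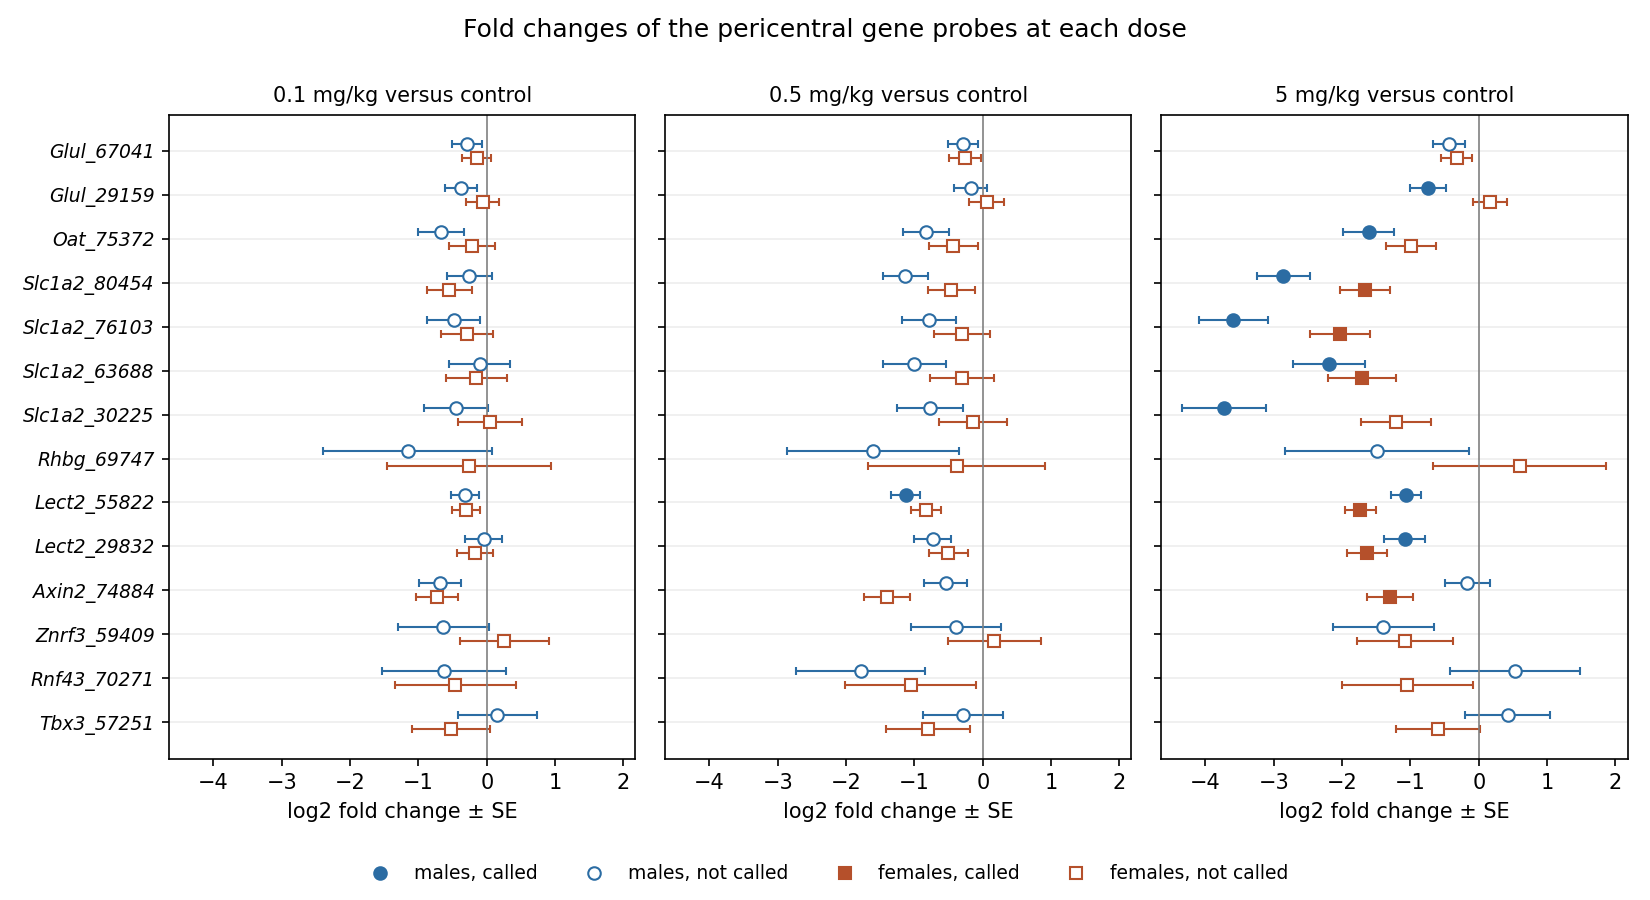
Log2 fold change against the control of the same sex (x axis, with SE) of 14 member probes (y axis) at each dose, circles for males and squares for females, filled where the adjusted p was under 0.10. Lgr5 is left out because it had no count in the males at 5 mg/kg. Of the 15 filled symbols 14 are at 5 mg/kg, where they lie between −3.72 and −0.74.

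Slc1a2 (chromosome 2, 102658659 to 102790784, plus strand, GRCm38) encodes the glutamate transporter GLT-1, which in the liver is restricted to the hepatocytes next to the central vein, and in males it had the largest fall of the members called. Its most counted probe, Slc1a2_80454, was at 90.5, 127, 143, 160.0 and 232 CPM in the control males and at 13.5, 18.2, 18.3 and 32 CPM in the males at 5 mg/kg. Every exposed male lay below every control male. The fold change was −2.86 (SE 0.39, 7.26-fold lower, adjusted p = 9.13e-07). Males at 0.5 mg/kg lay between, at 23.1, 52.0, 72.8, 96.6 and 98.8 CPM, and overlapped the controls. Their fold change of −1.13 (SE 0.33, adjusted p = 0.145) was called without a filter on low counts (adjusted p = 0.0204) and at equal depth (0.0899), and under no other alternative. In females the same probe was at 158, 199, 225, 230.2 and 296 CPM in controls and at 29.5, 43.7, 50.8 and 156 CPM at 5 mg/kg. Here the groups also did not overlap, but the highest exposed female nearly reached the lowest control. The fold change was −1.66 (SE 0.36, 3.17-fold lower, adjusted p = 0.00254).

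The other 3 Slc1a2 probes, which read the same gene and are no separate replicates, fell in males as well. Slc1a2_76103 went from between 20.2 and 51.0 CPM to between 0.375 and 4.48 CPM in males (log2 fold change −3.59, SE 0.50, adjusted p = 1.45e-06), and Slc1a2_63688 from between 20.1 and 53.6 to between 1.5 and 17 CPM (−2.19, SE 0.53, adjusted p = 0.00499). Slc1a2_30225, the least counted, had 0, 0, 21 and 17 counts in the males at 5 mg/kg against 67 to 208 counts in controls (−3.72, SE 0.61, adjusted p = 3.06e-05). In none of the 4 probes did the groups of males overlap. In females, Slc1a2_76103 fell (−2.03, SE 0.44, adjusted p = 0.0023), as did Slc1a2_63688 (−1.71, SE 0.50, adjusted p = 0.041), while Slc1a2_30225 was at −1.21 (SE 0.51, adjusted p = 0.266). The call of Slc1a2_63688 in females was lost when the female numbered 1, 2 or 3 at 5 mg/kg was left out (adjusted p of 0.203, 0.132 and 0.158) and in the robust fit (0.102), while its fold change stayed between −2.30 and −1.43 over all alternatives. Without the 4 males of low depth, the fold changes of the 4 probes in males lay between −3.51 and −2.62, with adjusted p-values from 7.35e-05 to 0.00267.

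**Figure D2:**
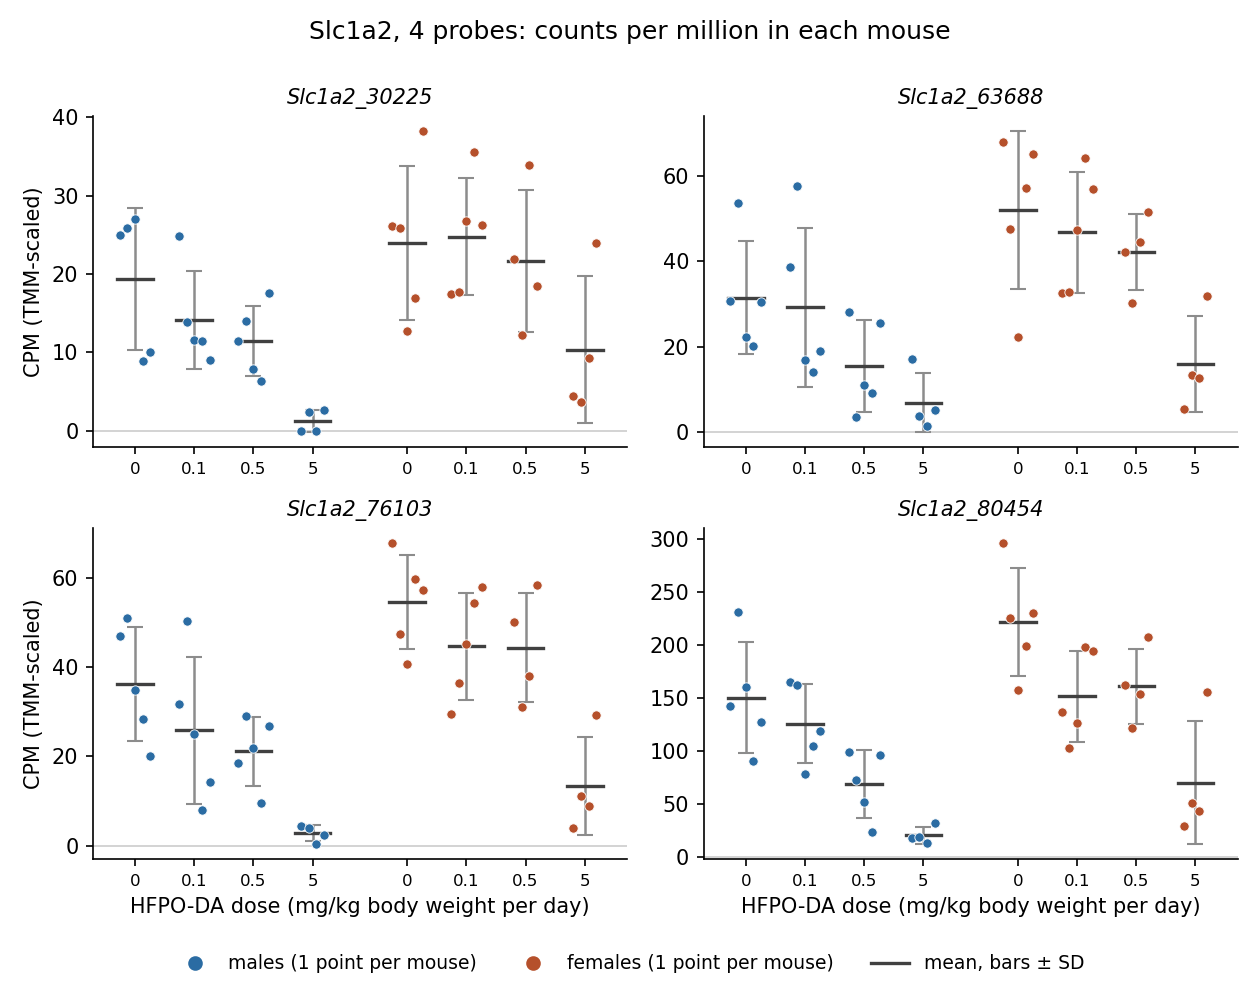
CPM (y axis) of the 4 Slc1a2 probes in each mouse by daily dose (x axis), with group mean and SD. In males the points at 5 mg/kg lie under all control points in each panel, and in females 1 mouse at 5 mg/kg lies well above the other 3.

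Oat (chromosome 7, 132557478 to 132576398, minus strand) encodes ornithine aminotransferase, which feeds carbon from ornithine into the glutamate that pericentral cells turn into glutamine. In control males Oat_75372 was at 188, 372, 382, 385 and 619 CPM, and in males at 5 mg/kg at 35.3, 124, 151 and 197 CPM. The groups overlapped by 1 mouse on each side, the lowest control at 188 and the highest exposed at 197 CPM. The fold change was −1.61 (SE 0.37, 3.05-fold lower, adjusted p = 0.00306), and −1.31 (adjusted p = 0.058) without the 4 males of low depth. Control females were at 344, 354, 401, 418 and 481 CPM, and females at 5 mg/kg at 130.4, 136, 140.2 and 396 CPM. Of the exposed females 3 lay far below the controls, and the fourth lay among them. The fold change in females was −0.99 (SE 0.36, adjusted p = 0.155) and was not called, while without the 4 males of low depth, which share the estimate of spread, it was called at −1.01 (adjusted p = 0.0683). It was also called with DESeq2 (adjusted p = 0.0832), with females fitted alone (0.0677) and without a filter on low counts (0.0303), at fold changes of −0.99 to −1.0. At 0.5 mg/kg Oat_75372 was at −0.83 (SE 0.34, adjusted p = 0.361) in males and −0.43 (SE 0.36, adjusted p = 1) in females, and the groups overlapped.

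That female, numbered 4 in its group, also had the highest level of all 4 Slc1a2 probes at 5 mg/kg, with 156 CPM on Slc1a2_80454 where the other exposed females were between 29.5 and 50.8 CPM. It was highest on Rhbg too, at 8.51 CPM against 1.76 to 3.38 CPM. Its Lect2_55822 level of 139 CPM was the highest too, though close to the 94.4 to 131 CPM of the others. This female was also highest on Lect2_29832 (31.3 CPM), Axin2_74884 (23.9 CPM), Tbx3 (18.1 CPM) and Znrf3 (7.49 CPM), but not on Glul_29159, Rnf43 or Lgr5. Its Glul_67041 level of 150.1 CPM lay inside the range of the others, 78.8 to 181 CPM. Ehhadh, a peroxisomal enzyme and PPARα target, was at 12736 CPM in this mouse, where the other exposed females were between 11959.5 and 17069.6 CPM and the control females between 342 and 495 CPM. Without this mouse, the fold changes in females were −1.56 for Oat_75372 (adjusted p = 0.00853), −2.42 for Slc1a2_80454 (adjusted p = 8.22e-06) and −2.04 for Slc1a2_30225 (adjusted p = 0.0254). The members called in females then went from 3 to 4. The mouse was singled out by its high Oat and Slc1a2 levels, so leaving it out was bound to deepen these falls. These values are therefore no separate evidence for them.

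Glul (chromosome 1, 153899944 to 153909723, plus strand) encodes glutamine synthetase, the enzyme that marks the hepatocyte layer next to the central vein. The more counted probe, Glul_67041, was at 73.9, 84.4, 103, 135 and 136 CPM in control males and at 39.8, 58.7, 89.8 and 125 CPM in males at 5 mg/kg. These groups overlapped, and the log2 fold change was −0.44 (SE 0.24, adjusted p = 0.26). Glul_29159 was at 49.4, 61.1, 81.1, 96.6 and 130.0 CPM in control males and at 39.0, 39.9, 44.6 and 75.8 CPM in males at 5 mg/kg. It was called at −0.74 (SE 0.26, 1.67-fold lower, adjusted p = 0.0695), with 3 of 4 exposed males below all controls. This call was lost under 11 of 19 alternatives, among them without the 4 males of low depth (−0.57, adjusted p = 0.321). In females neither probe was called: the mean of Glul_67041 was 168.9 ± 35.4 CPM (SD, n = 5) without exposure and 134.7 ± 43.1 CPM (SD, n = 4) with it, and that of Glul_29159 was 107.3 ± 32.5 CPM (SD, n = 5) and 120.2 ± 37.6 CPM (SD, n = 4). The 2 probes of Glul therefore lay on opposite sides of 0 in females, at −0.33 (SE 0.23) and 0.16 (SE 0.25), and the groups overlapped on both.

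Rhbg (chromosome 3, 88242874 to 88254709, minus strand), a channel that lets ammonium into pericentral hepatocytes, was near the floor of the assay. Control males had 1, 5, 6, 21 and 65 counts on its probe and males at 5 mg/kg had 0, 0, 1 and 29, while control females had 10 to 37 counts and females at 5 mg/kg 20 to 100. The groups overlapped in both sexes, with log2 fold changes of −1.49 (SE 1.35, adjusted p = 0.572) in males and 0.60 (SE 1.27, adjusted p = 1) in females. Without the male numbered 2 at 5 mg/kg, which held the 29 counts, Rhbg was called in males (adjusted p = 0.0967). That male had the highest total of its group, at 9098192 counts. The males left had 0, 0 and 1 counts of Rhbg. Those numbered 1 and 3 were of low depth, with totals of 4147445 and 2101495 counts. The part of low depth in this call was not tested. With standard errors above 1 on the log2 scale, a difference of the size seen for Oat could not have been told from the spread between mice.

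Lect2 (chromosome 13, 56542464 to 56548502, minus strand) encodes a secreted liver protein, named for its action on leukocytes and known as a β-catenin target in hepatocytes, and it was the member called at the lowest dose. Lect2_55822 was at 175, 200.0, 240.4, 279 and 329 CPM in control males and at 88.6, 106, 116, 121 and 126 CPM in males at 0.5 mg/kg. All 5 of the latter lay below all 5 controls. The fold change was −1.13 (SE 0.21, 2.19-fold lower, adjusted p = 0.00214), and it was called under all 20 alternatives, with adjusted p-values from 8.33e-05 to 0.0339. At 5 mg/kg the males were at 76.6, 83.3, 149 and 159 CPM, again all below the controls. The fold change of −1.07 (SE 0.22, adjusted p = 0.00109) was no larger than that at 0.5 mg/kg. Control females were at 308, 366, 400.1, 415 and 442 CPM, females at 0.5 mg/kg at 165, 232, 233 and 239.6 CPM, and females at 5 mg/kg at 94.4, 101, 131 and 139 CPM. Neither of these exposed groups overlapped the controls. The fold change was −1.73 (SE 0.23, 3.32-fold lower, adjusted p = 7.86e-07) at 5 mg/kg and −0.83 (SE 0.22, adjusted p = 0.3) at 0.5 mg/kg, which was not called, although DESeq2 (adjusted p = 0.00771) and a fit of females alone (adjusted p = 0.0327) did call Lect2_55822 there. The second probe, Lect2_29832, fell at 5 mg/kg too, with −1.09 in males (SE 0.30, adjusted p = 0.0142) and −1.64 in females (SE 0.30, adjusted p = 0.000228). At 0.5 mg/kg in males, however, Lect2_29832 was not called. It ran from 20.4 to 35.4 CPM against 27.1 to 76.5 CPM in controls, and overlapped them (−0.73, SE 0.27, adjusted p = 0.328), so the call at that dose rests on Lect2_55822.

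Axin2 (chromosome 11, 108920349 to 108950783, plus strand) encodes a scaffold of the complex that degrades β-catenin and is itself a β-catenin target, a feedback that makes it a common readout of the pathway. Axin2_74884 was at 35, 38, 42.9, 56.1 and 63.9 CPM in control females and at 13.8, 17.9, 21.3 and 23.9 CPM in females at 5 mg/kg. No exposed female reached a control. The fold change was −1.29 (SE 0.34, 2.45-fold lower, adjusted p = 0.0161) and was called under all 19 alternatives, with adjusted p-values up to 0.0898. Females at 0.5 mg/kg were as low, at 12.1, 17.9, 18 and 23.3 CPM. Their fold change of −1.40 (SE 0.34, adjusted p = 0.117) missed the threshold, and Axin2 was called there under 6 of the alternatives. Control males were spread from 17.1 to 56.7 CPM, and males at 5 mg/kg lay inside that spread, at 21.5 to 40.8 CPM (−0.17, SE 0.33, adjusted p = 0.838). Axin2_79438 was too low to be tested. It had 0, 4, 7, 9 and 10 counts in the control males and 0 in each of the 14 exposed males, and at most 5 counts in any female.

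Znrf3 (chromosome 11, 5276324 to 5444847, minus strand) and Rnf43 (chromosome 11, 87662722 to 87735539, plus strand) encode ubiquitin ligases that remove Wnt receptors from the cell surface. Neither was called at any dose. Mean Znrf3 was 6.52 ± 1.66 CPM (SD, n = 5) in control males, against 2.40 ± 2.12 CPM (SD, n = 4) in the exposed, and 3 of the 4 exposed males had 10, 28 and 21 counts and the fourth none. Its log2 fold change was −1.40 (SE 0.74, adjusted p = 0.251) in males and −1.08 (SE 0.71, adjusted p = 0.681) in females. Rnf43 was at 0.53 (SE 0.95, adjusted p = 0.819) in males and −1.05 (SE 0.96, adjusted p = 0.892) in females. Levels of Rnf43 varied from 0 to 10.1 CPM among the control and 5 mg/kg males and from 1.05 to 11.2 CPM among the females of these doses. The control and 5 mg/kg groups overlapped in both sexes.

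Lgr5 (chromosome 10, 115450311 to 115587780, minus strand) encodes the R-spondin receptor that neutralizes Znrf3 and Rnf43, and it was hardly detected. Control males had 0, 0, 0, 4 and 8 counts and all 4 males at 5 mg/kg had 0, so no fold change is given. Males at 0.1 mg/kg had up to 22 counts and males at 0.5 mg/kg up to 32. Control females had 9 to 21 counts, and females at 5 mg/kg 0, 0, 17 and 19, with an adjusted p of 1. Tbx3 (chromosome 5, 119670669 to 119684724, plus strand), a transcriptional repressor downstream of β-catenin, was not called either. The lowest control female had 18.9 CPM and the median one 24.4 CPM, and females at 5 mg/kg were at 14.1, 14.1, 16.2 and 18.1 CPM. These groups did not overlap, yet the fold change was −0.60 (SE 0.61, adjusted p = 0.93), with an SE taken from the spread of Tbx3 over all 8 groups. Females at 0.5 mg/kg, at 9.65 to 16.7 CPM, also lay below all controls (−0.80, SE 0.62, not called). Control males ran from 0 to 23.5 CPM and males at 5 mg/kg from 11.1 to 28.5 CPM.

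**Figure D3:**
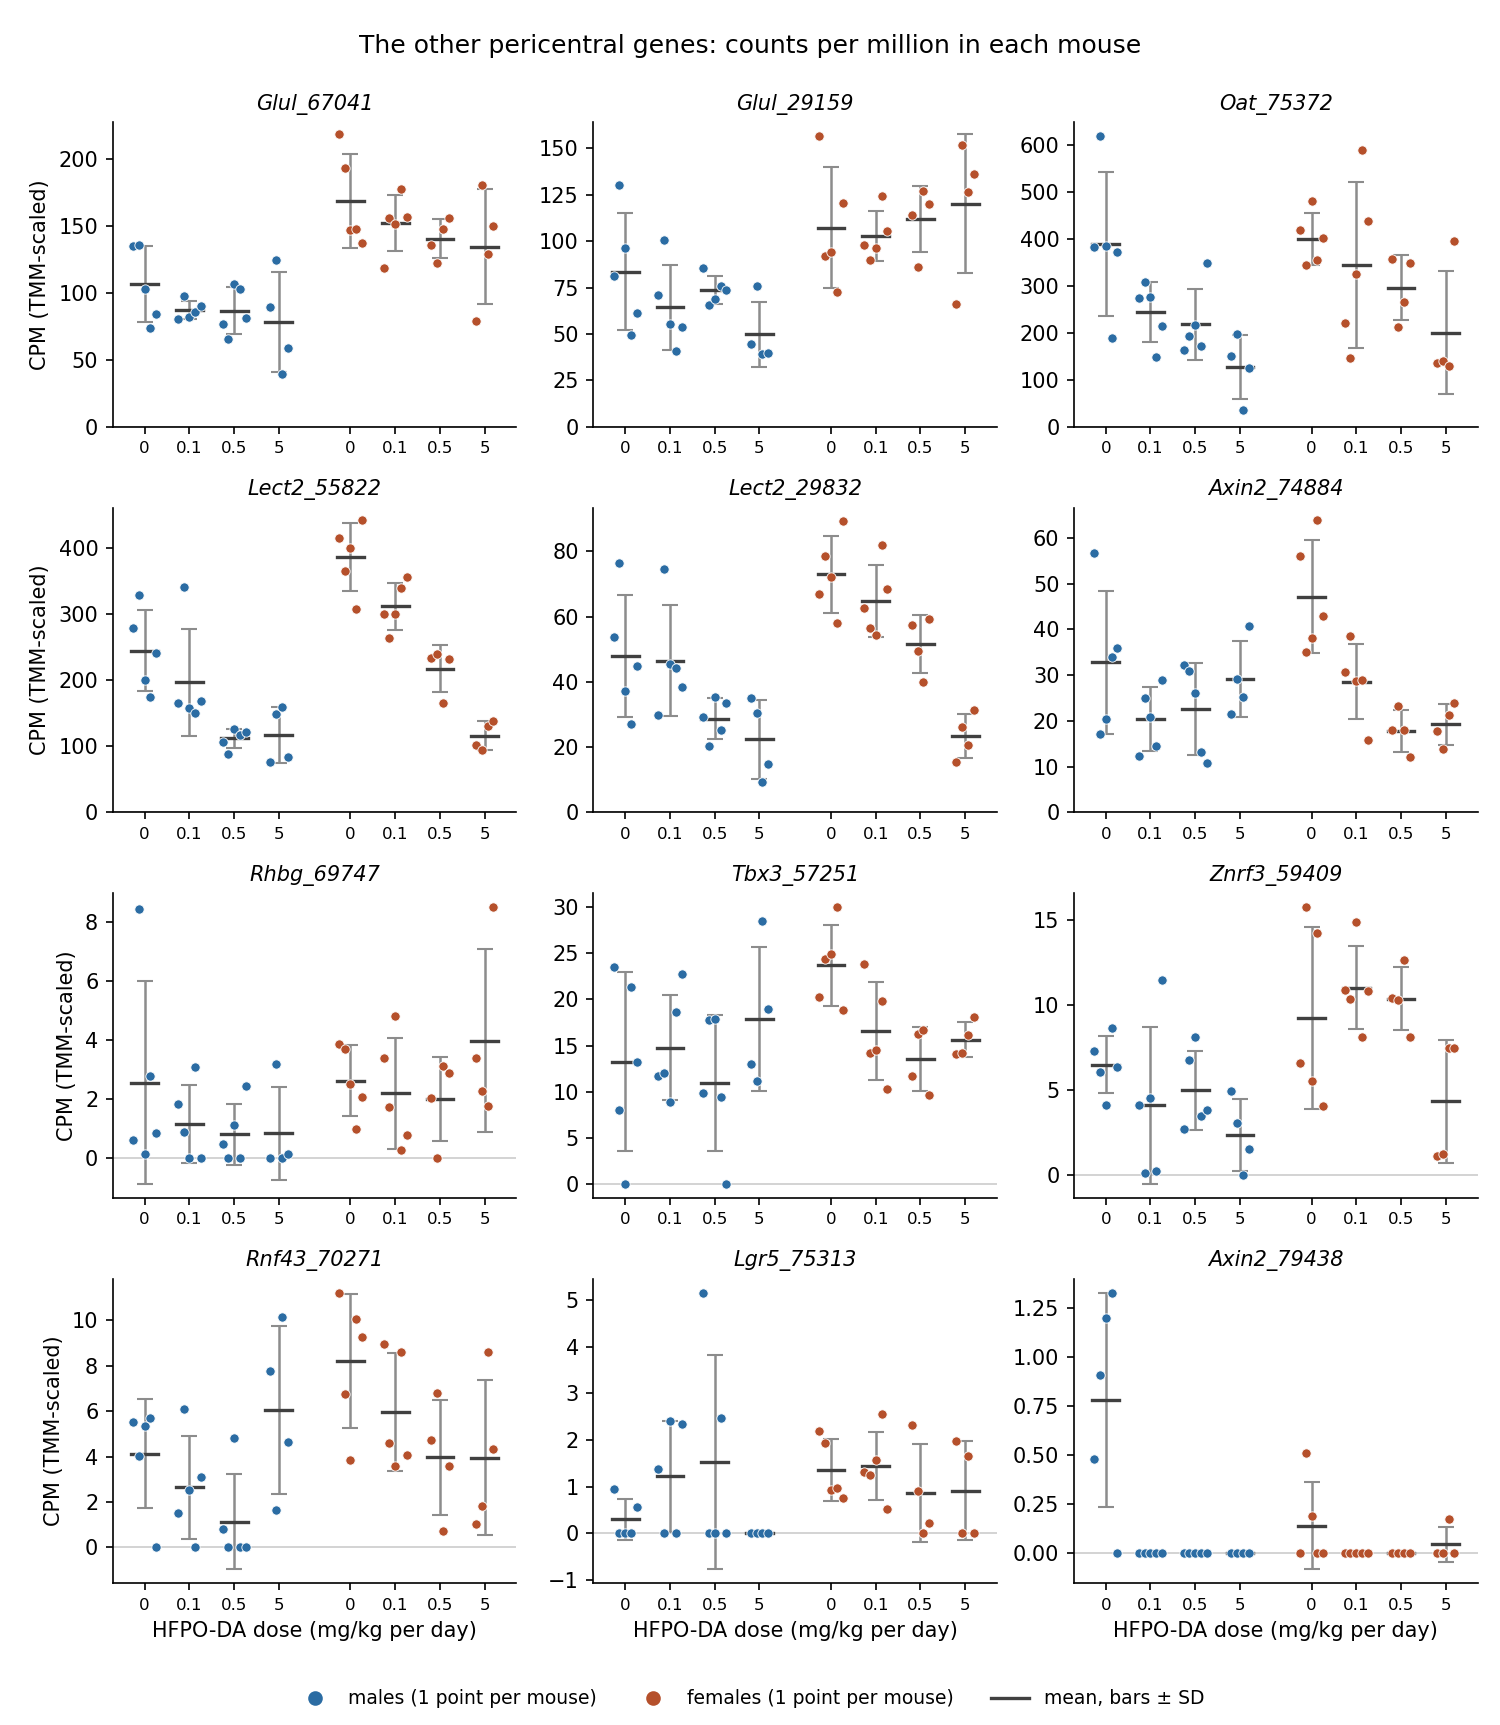
CPM (y axis) of the other 12 member probes in each mouse by daily dose (x axis), with group mean and SD. Lect2_55822 in both sexes, and Axin2_74884 and Tbx3_57251 in females, lie wholly below the controls at 0.5 and 5 mg/kg, though Tbx3 was not called. The points of Glul, Znrf3 and Rnf43 overlap between control and 5 mg/kg mice.

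Ordered by mean level over the 8 groups, the control females came highest on 10 of the 15 tested probes and the males at 5 mg/kg lowest on 10. On Slc1a2_80454 the order ran from control females (221.8 CPM) through females at 0.5 mg/kg (161.3), females at 0.1 mg/kg (151.6), control males (150.3), males at 0.1 mg/kg (125.8), females at 5 mg/kg (69.95) and males at 0.5 mg/kg (68.66) to males at 5 mg/kg (20.49). Neighbours in this order overlapped in range on this probe, as they did on every other tested probe except Slc1a2_30225, where the females at 5 mg/kg lay wholly above the males at that dose. On Lect2_55822 the means at 5 mg/kg were 116.2 CPM in females and 117.0 CPM in males, although control females, at 386.3 CPM, had started above control males, at 244.7 CPM.

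Whether the response differed between the sexes was tested as an interaction. No member was called at 5 mg/kg, where 0.63% of all probes were. An unadjusted p under 0.05 was found for 6 of 15 member probes, of 4 genes, beside 10.7% of all tested probes. The lowest adjusted p was that of Slc1a2_30225, at a log2 difference of 2.51 with females less lowered than males (SE 0.76, adjusted p = 0.183). This probe was called under 4 alternatives, with DESeq2 (adjusted p = 0.0753), without a filter (0.0624), at equal depth (0.0941) and without the male numbered 4 (0.0809). For Axin2_74884 the difference was −1.13 (SE 0.46, adjusted p = 0.381), with females more lowered. The response of Axin2 is therefore called in females and not in males without a difference between the sexes being shown. Interactions at 0.1 and 0.5 mg/kg gave no call among the members and no unadjusted p under 0.05, which 4.46% and 5.13% of all tested probes had.

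Between control females and control males no member was called either, where 2.6% of all probes were. On the most counted probes all 10 log2 differences were above 0, with a median of 0.61, beside 0.06 over all tested probes. In the gene lists read below, the median ran from −0.38 for other β-catenin targets to 0.60 for stellate cell markers. Glul_67041 was higher in every control female than in any control male (0.67, SE 0.22, adjusted p = 0.135), and Lect2_55822 was at 0.66 (SE 0.21, adjusted p = 0.102). Both were called with DESeq2 (adjusted p of 0.0402 and 0.0316).

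The ligands that act on these genes were mostly too low to be tested. Of 26 genes for Wnt and R-spondin ligands and their handling, 10 were tested, and at 5 mg/kg 1 fell in males and none in females. The counts of this list and of those below stand beside the shares of all tested probes. These were 8.49% lowered and 4.21% raised in males, and 2.26% lowered and 2.26% raised in females. Rspo3, the R-spondin of the central vein, averaged 6.18 ± 1.85 CPM (SD, n = 5) in control males, against 3.35 ± 3.77 CPM (SD, n = 4) in the exposed (log2 fold change −0.83, SE 0.61, adjusted p = 0.448), and in females it was at −0.44 (SE 0.59, adjusted p = 0.99). Wnt2, made by the same endothelium, was at −0.18 (SE 0.61, adjusted p = 0.918) in males and −0.45 (SE 0.61, adjusted p = 0.991) in females. Wnt9b had at most 13 counts in a control male and 0 in all 4 males at 5 mg/kg. The gene called was Wnt5b, a ligand best known outside the β-catenin branch, with 11 to 28 counts in each control male and 0 in each male at 5 mg/kg (adjusted p = 0.0138), a call that was lost at equal depth.

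Of 30 receptors and secreted antagonists 16 were tested, and 2 fell in males and 1 in females, beside 8.49% and 2.26% of all probes lowered. Lgr4 was called in both sexes. Lgr4 is the R-spondin receptor that hepatocytes carry across the lobule. Control males had 58.6 ± 5.02 CPM (SD, n = 5), and males at 5 mg/kg 28.6 ± 11.1 CPM (SD, n = 4), a change of −1.03 (SE 0.25, adjusted p = 0.00482). Control females had 87.4 ± 25.7 CPM (SD, n = 5), and exposed females 47.0 ± 10.2 CPM (SD, n = 4) (−0.90, SE 0.24, adjusted p = 0.024). No exposed mouse reached a control of its sex. Ryk, a Wnt co-receptor, fell in males (−1.48, SE 0.54, adjusted p = 0.0835) and was at −0.97 (SE 0.52, adjusted p = 0.478) in females. The count was 0 to 2 genes in females and 1 to 3 in males when each mouse was left out in turn, and it was 0 in females without the exposed female numbered 3.

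Of 29 genes of the β-catenin degradation complex and its nuclear partners, 8 fell and 1 rose in males, and none was called in females. β-catenin itself, Ctnnb1, was at 75.3 ± 10.2 CPM (SD, n = 5) in control males, against 45.6 ± 21.3 CPM (SD, n = 4) in the exposed (−0.72, SE 0.26, adjusted p = 0.0753), with all exposed males below the controls, and was at −0.19 (SE 0.25, adjusted p = 0.99) in females. Dvl1, which relays the Wnt signal, fell in males (−1.07, SE 0.27, adjusted p = 0.00811), and so did the corepressor Tle2 (−3.10, SE 0.80, adjusted p = 0.00947). Tcf7l2, the main TCF factor of hepatocytes, gave unlike values on 2 probes in males, 0.02 (SE 0.27, adjusted p = 0.983) on Tcf7l2_63599 and −0.87 (SE 0.30, adjusted p = 0.066) on Tcf7l2_65157. The scaffold gene Apc was at −0.26 (SE 0.38, adjusted p = 0.762) in males. The raised gene, Pygo1, had at most 3 counts in a control male and at most 21 in a male at 5 mg/kg. Without the 4 males of low depth 4 genes fell in males and 2 in females, and with each sex fitted alone 2 fell in males and 4 in females, so the counts by sex depended on the fit.

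Among 15 other known targets of β-catenin, the gene called was Ccnd1, cyclin D1 of the cell cycle, and it rose. In males its more counted probe, Ccnd1_31337, went from between 0 and 41 counts to between 36 and 173 (log2 fold change 3.57, SE 0.81, adjusted p = 0.0026), and in females the change was 2.43 (SE 0.76, adjusted p = 0.0655), with 4.88 ± 2.58 CPM (SD, n = 5) in controls against 26.4 ± 9.47 CPM (SD, n = 4). The groups did not overlap in CPM on this probe in either sex. On Ccnd1_80514 the males overlapped, at 0.778 to 4.26 CPM in controls and 2.12 to 14.3 CPM at 5 mg/kg (2.36, SE 0.78, adjusted p = 0.0507), and the females did not (2.88, SE 0.78, adjusted p = 0.0237). Ccnd1 thus moved in the opposite direction to Slc1a2, Oat and Lect2. Nkd1, a feedback inhibitor, was at −1.29 (SE 0.55, adjusted p = 0.139) in males and −1.25 (SE 0.54, adjusted p = 0.28) in females, where no exposed mouse reached a control. Notum, which inactivates Wnt ligands, was at −1.0 (SE 0.61, adjusted p = 0.338) and −0.16 (SE 0.59, adjusted p = 1), and Sp5 had at most 17 counts in any control or 5 mg/kg mouse.

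Genes of the wider pericentral zone and of the opposite, periportal zone were set beside the members. Of 31 other pericentral genes tested, 11 fell and 1 rose in males, and 6 fell and 2 rose in females. Cyp1a2, a drug-metabolizing enzyme, fell in both sexes, with −1.62 in males (SE 0.20, adjusted p = 1.06e-07) and −1.14 in females (SE 0.19, adjusted p = 8e-05) on the log2 scale. Cyp2e1, which oxidizes ethanol, fell in males (−1.26, SE 0.25, adjusted p = 0.000421) and was at −0.68 (SE 0.24, adjusted p = 0.14) in females. Cyp2c50 had the largest fall among those named, from between 244 and 437 counts to between 0 and 35 in males (−4.18, SE 0.42, adjusted p = 1.02e-09), on a probe that may share reads with near-identical Cyp2c genes. The same doubt holds for Cyp2c54_63720 (−4.11 in males and −2.18 in females) and Cyp2c29_81850 (−2.52 and −1.13). Car3, carbonic anhydrase of the liver cytosol, fell in both sexes, with −1.96 in males (SE 0.28, adjusted p = 2.31e-06) and −1.63 in females (SE 0.28, adjusted p = 7.68e-05). Aldh1a1, which makes retinoic acid, rose in males (0.71, SE 0.24, adjusted p = 0.0599) and in females (1.22, SE 0.24, adjusted p = 0.000856).

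Of 30 periportal genes tested, 25 fell in males and 11 in females, and none rose. Hal, the first enzyme of histidine breakdown, fell in both sexes, with −1.69 in males (SE 0.23, adjusted p = 8.85e-07) and −1.30 in females (SE 0.23, adjusted p = 0.00012). Gls2, liver glutaminase, which releases the ammonia that the urea cycle takes up, fell as well, with −1.50 in males (SE 0.24, adjusted p = 1.67e-05) and −1.50 in females (SE 0.24, adjusted p = 2.76e-05). Pigr, the receptor that carries IgA, went from between 105.7 and 145 CPM to between 3.0 and 45.28 CPM in males (−3.12, SE 0.43, adjusted p = 1.45e-06). Otc of the urea cycle fell with −1.75 in males (SE 0.22, adjusted p = 2.69e-07) and −0.76 in females (SE 0.21, adjusted p = 0.0324). Cyp2f2, a periportal cytochrome, fell in males (−0.53, SE 0.20, adjusted p = 0.0881) and was at −0.14 (SE 0.20, adjusted p = 0.999) in females. The median log2 fold change of the periportal genes was −1.29 in males and −0.76 in females, that of the other pericentral genes −0.27 and −0.20, and that of the members −1.07 and −1.02. Falls at 5 mg/kg were thus found among genes of both ends of the lobule. Without the 4 males of low depth, 18 periportal and 9 other pericentral genes fell in males.

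**Figure D4:**
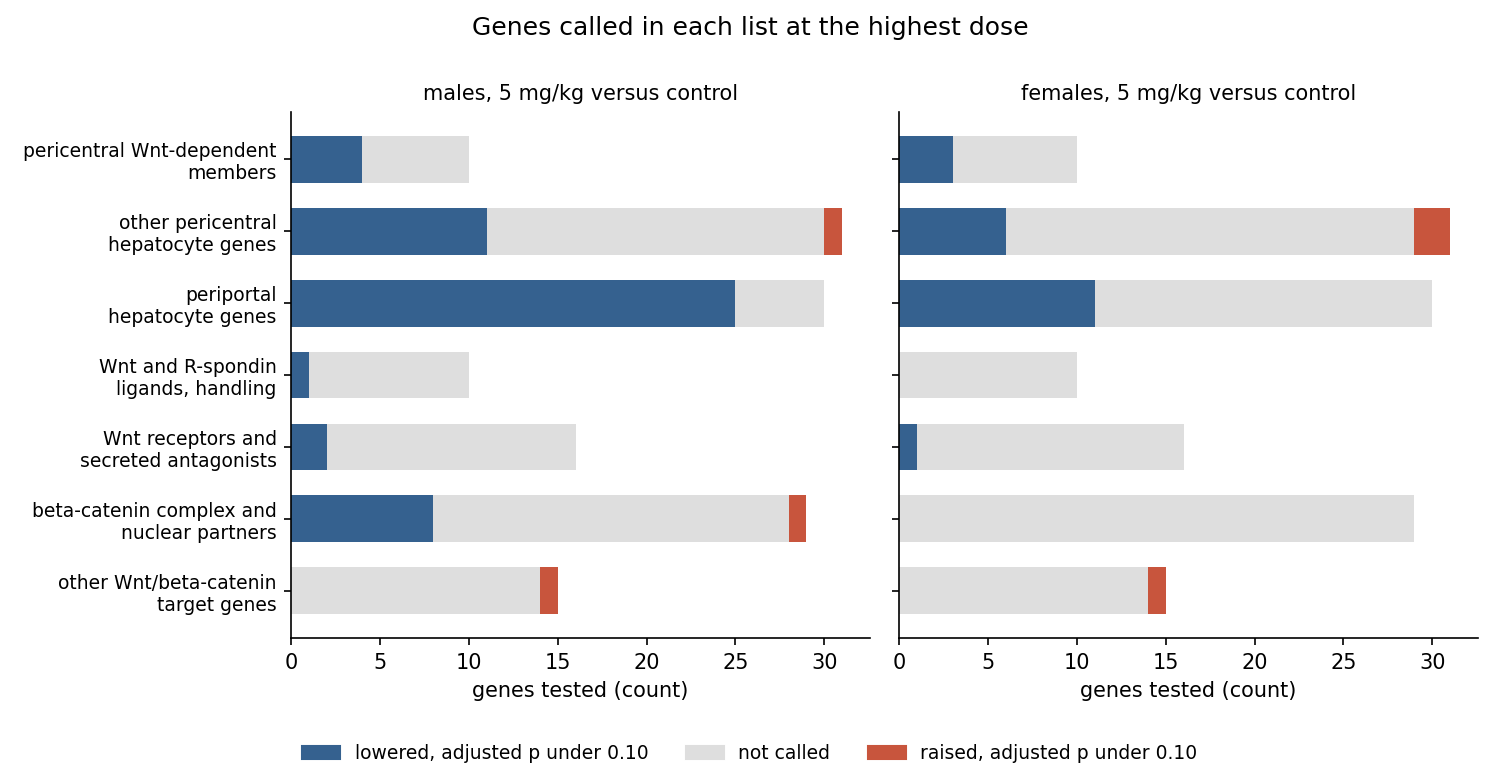
Number of genes tested (x axis) in each list (y axis), split into those lowered, not called and raised at 5 mg/kg, for males (left) and females (right). The periportal list has the most lowered genes in both panels, 25 of 30 and 11 of 30, and the members have 4 of 10 and 3 of 10.

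Markers of the cell types in the section were read for the same comparison, in which 8.49% of all tested probes were lowered in males and 2.26% in females. Among 9 hepatocyte markers 5 fell in each sex, among them Serpinc1, or antithrombin (−0.74 in males, SE 0.14, adjusted p = 0.000322), and their summed level went from between 18790 and 24280 CPM to between 14950 and 17460 CPM in males and from between 24870 and 33720 to between 20860 and 22730 CPM in females. Of 17 markers of central vein and sinusoidal endothelium, 2 fell in males (Kdr and Oit3) and none was called in females, and the count in males was 1 without the 4 males of low depth and 0 with males fitted alone. Their summed level was 558.7 to 811.2 CPM in control males and 507.1 to 639.5 CPM at 5 mg/kg, and 674.3 to 759.3 and 507.6 to 644.6 CPM in females, where the groups did not overlap. Their part in the fall of the members was not tested. Of 13 stellate cell markers 1 fell in males (Hhip, with at most 17 counts in a control male and 0 in every exposed male, not called without the males of low depth), of 9 lymphocyte and erythroid markers 1 fell in males (Cd3d), and of 11 Kupffer cell and 6 cholangiocyte markers none was called in either sex, with Epcam at 0 in all control males, control females and females at 5 mg/kg, and Marco at 0 in all males at 5 mg/kg. Kupffer cell markers summed to 106.4 to 481.3 CPM in control males and 153.4 to 416.5 CPM at 5 mg/kg, and stellate cell markers to 169 to 389.5 and 253.2 to 377.4 CPM.

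Whether the members vary together from mouse to mouse was examined after subtracting each group's mean log2 CPM, over 37 mice and 9 pairs with Glul_67041. Oat was the most closely related, with Pearson's r = 0.557 and Spearman's rho = 0.441 (permutation p = 0.0106 and 0.0151, adjusted over the 9 pairs 0.0956 and 0.136). Leaving out the 2 mice farthest from the median of Glul lowered r to 0.367, so the relation rests in part on them. The other 8 members had r between −0.12 and 0.307, with adjusted p-values of at least 0.501. When only the mean of each sex was removed, so that dose stayed in, the probes most like Glul_67041 among 18568 compared were Cyth1_75880 (r = 0.71), Lcat_30583 (r = 0.689) and Lect2_29832 (r = 0.683) over the 37 mice, a likeness given as a description only. By their most counted probes the other members differed widely in this measure. Oat had r = 0.659 and ranked 8 among all probes, Slc1a2 had 0.456, Lect2 had 0.426 and ranked 1315, and Znrf3 had 0.413. Axin2 had 0.0865 and Tbx3 −0.124, and the likeness of Lect2 to Glul thus depended on the probe.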

How the data were processed

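Whole-transcriptome TempO-Seq counts from liver sections of 37 mice in 8 sex-by-dose groups were used, with groups taken from the sample labels and mice numbered within a group in the order of deposit. TempO-Seq counts pairs of detector probes joined on their target RNA. The authors deposited raw counts per probe, after demultiplexing with bcl2fastq 2.17.1.14 and alignment with Bowtie per the submitters' processing notes. They had removed samples of low depth before deposit, and the genome build is not given in the sources used here. No normalization had been applied to the deposited counts.

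Here probes were filtered with filterByExpr over the 8 groups (18570 of 30146 kept), scaled by TMM, and fitted in 1 model over all 37 mice with edgeR 4.0.16 in R 4.3.3 (glmQLFit and glmQLFTest). Contrasts set each dose against the control of its sex, the difference between the sexes at each dose, and control females against control males. The Benjamini-Hochberg threshold was 0.10, after the study's methods. Standard errors are the absolute log2 fold change over the square root of F. Log2 CPM used a prior count of 2. Correlations used 100000 permutations in Python 3.11.15 with scipy 1.17.1, and the test script was checked on simulated data.

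The members and gene lists were chosen with earlier results of these data known. Named were all member probes, a fixed set of pathway and zonation genes, and the 3 probes most like Glul. Further genes were taken from the up to 4 called genes with the smallest adjusted p per list, direction and sex. Not all of the latter are named. Among those left out are Serpina1b, Apof, Ctnnbip1 and Tnks2, which fell, and Cpox, which rose. The cell type markers named singly, and Ehhadh, were chosen after their values were seen.

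Alternatives were DESeq2 1.42.0 and its size factors, no filter or a filter at a mean of 10 counts, edgeR's robust option, separate fits of the sexes, probes summed per gene, counts thinned to equal depth, a 0.05 threshold, and dropping single mice. Leaving out the 4 males of low depth was chosen after seeing the data. The positions and sequences of the probes were not used here, so the transcripts each probe reads are not given. Gene coordinates are those of GENCODE on GRCm38.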

Additional observations from a re-analysis of the deposited data

Results flagged for a closer look

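Over the 15 tested member probes, 120 groups of 4 or 5 mice were examined for a mouse far from the rest. Gaps and ranges were taken on log2 CPM (prior count 2), while the levels printed here are CPM. In 7 groups the gap of a mouse to its nearest neighbour took up more of the group's range than Dixon's 95% critical value. Chance alone flags about 1 in 20 groups. The gap was 0.935 of the range for Oat in the female numbered 4 at 5 mg/kg, the highest of its group at 396 CPM. This mouse was also highest on Slc1a2, Rhbg, Lect2, Axin2_74884, Tbx3 and Znrf3. On Lect2_55822 the gap was 0.914 for the female numbered 3 at 0.5 mg/kg, the lowest at 165 CPM, and 0.863 for the male numbered 2 at 0.1 mg/kg, the highest at 341 CPM.

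The other 4 mice were the lowest of their groups. Each had 0 counts on the probe, which the log scale sets far below the rest, and gaps on the CPM scale were not tested. They were found on Rnf43 in the control male numbered 5 (0.897), Tbx3 in the control male numbered 3 (0.773), Tbx3 in the male numbered 5 at 0.5 mg/kg (0.857) and Rhbg in the female numbered 2 at 0.5 mg/kg (0.857). On Tbx3 the others of the group were at 8.04 to 23.5 CPM in control males and 9.44 to 17.9 CPM in males at 0.5 mg/kg. On Rnf43 the other control males were at 4.02 to 5.71 CPM, and on Rhbg the other females at 0.5 mg/kg were at 2.05 to 3.12 CPM.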

How the results depend on the processing

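No member probe changed direction among those called. At 5 mg/kg the number of members called stayed at 3 to 5 in males and 3 to 4 in females when each mouse was left out in turn. It was 5 without the male numbered 2, the highest of its group on Rhbg, with Rhbg added. It was 4 without the female numbered 4, the highest of its group on Oat, with Oat added. In females it was also 4, with Oat added, with DESeq2, with each sex fitted alone, without a filter and without the 4 males of low depth. At 0.5 mg/kg it stayed at 1 in males under every left-out mouse, and was 2, with Slc1a2 added, without a filter and at equal depth. In females at 0.5 mg/kg it was 0 with each mouse left out. It was 1 (Axin2) without a filter, in the robust fit, with probes summed, at equal depth and without the 4 males of low depth, 1 (Lect2) with DESeq2, and 2 with each sex fitted alone. At 0.1 mg/kg it was 0 throughout. For the difference between the sexes at 5 mg/kg it was 1 (Slc1a2) without a filter, at equal depth and with DESeq2, and 0 to 1 over left-out mice. For control females against control males it was 1 (Lect2) without a filter, with probes summed and at equal depth, 2 (Glul and Lect2) in the robust fit, with DESeq2 and without the 4 males of low depth, and 0 to 2 over left-out mice, with 2 without the control male numbered 2. The cause was not tested. The correlation of Oat with Glul was 0.513 (adjusted p = 0.169) with DESeq2 size factors.

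Over all probes at 5 mg/kg, 782 rose and 1577 fell in males and 419 rose and 420 fell in females. With each sex fitted alone the numbers were 365 and 755 in males and 941 and 1152 in females, and with a threshold of 0.05 they were 496 and 1034 in males and 315 and 320 in females. No paired analysis was possible because the labels name each mouse by its own animal number and give none that groups share. Depth and the spread between mice were not separated for the members with low levels.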
